A study of Mus musculus with 6 samples.

Results

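The fibril-associated collagens with interrupted triple helices (FACIT collagens) were followed in tail tendons of wild-type (WT) mice and of mice lacking *Mkx*, the gene of a tendon transcription factor of the homeobox type. The members were chosen by name. They are the genes *Col9a1*, *Col9a2*, *Col9a3*, *Col12a1*, *Col14a1*, *Col16a1*, *Col19a1*, *Col20a1* and *Col22a1*, and all 9 were found among the 44788 gene symbols of the count table. Bulk RNA-seq was available for 3 WT and 3 Mkx-/- libraries of tail tendon, all of the C57BL/6 strain and without treatment, and the labels name no allele besides Mkx-/-. The labels give an age of 3 weeks, while the results text of the study gives another age for these tendons. RNA came from minced whole tendon, so fewer cells of a type and less RNA per cell cannot be told apart. Of the 9 FACIT genes, 7 passed the filter on low counts, and 0 were called higher or lower in Mkx-/- tendons. Levels differed widely within the family. *Col12a1*, *Col16a1* and *Col14a1* held 98.0% to 98.9% of the family's counts in every library, while *Col9a1* and *Col19a1* had 0 to 20 counts each.

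Tendon fibrils are built mainly of type I collagen, whose chains form 1 long uninterrupted triple helix. FACIT collagens do not form such fibrils themselves. They lie on the surface of fibrils made by other collagens, with short helical stretches bound to the fibril and large non-helical domains reaching outwards, where they can meet proteoglycans, matrix proteins and cells. Types XII and XIV are known from tendon, skin and other dense connective tissue, type IX from cartilage fibrils of type II collagen, type XVI from skin and cartilage, type XIX from basement membrane zones, and type XXII from tissue junctions such as that between muscle and tendon. Type XX is the least studied of the group.

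The chains are described first by their helical runs and by the cysteine pair that marks FACIT chains, the sequence features that set them apart from fibrillar collagens. In a collagen helix glycine returns at every position after X and Y, written Gly-X-Y. Runs of at least 5 such triplets were located in the coding sequences of the GENCODE models. The Col12a1 model encodes 3065 residues, of which 8.1% lay in 83 triplets in 5 runs near its end. The Col14a1 model likewise held 83 triplets in 5 runs, which were 13.9% of its 1797 residues, and the Col20a1 model held 50 triplets in 2 runs, 11.4% of 1320 residues. These are the members made mostly of non-helical domains. In the other 6 members 58.9% to 85.5% of the residues lay in triplets, spread over 6 to 21 runs, with the most interruptions in Col16a1. By comparison, Col1a1, Col1a2 and Col3a1 each had 2 runs, and their longest run held 338 to 344 triplets against 113 at most in a FACIT chain. A pair of cysteines with 4 residues between them lies at the end of the last helical run in FACIT chains, where it can link the chains of a trimer. A pair so placed was found in the models of 8 members. It was not found in those of Col20a1, Col1a1, Col1a2 and Col3a1. The search covered only the end of the last run of at least 5 triplets. In Col20a1 that was the second of 2 runs, ending at residue 1221 of 1320, whereas Col12a1 and Col14a1 had 5 runs. A pair elsewhere in Col20a1 was not searched for.

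**Figure D1:**
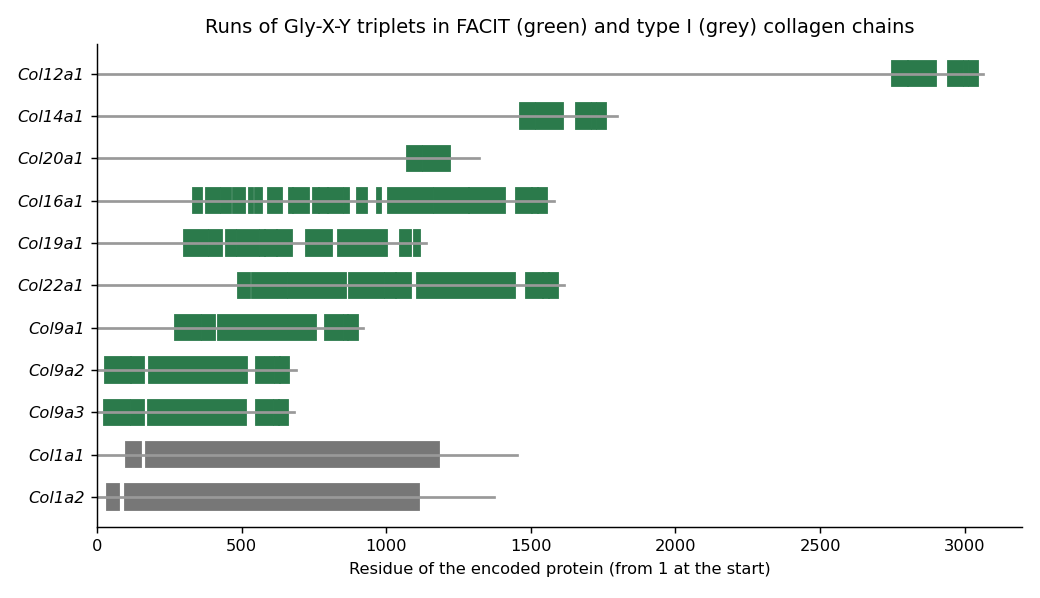
Runs of at least 5 Gly-X-Y triplets (boxes) along the encoded chain (line, in residues from the start) for the 9 FACIT genes in green and the type I collagen genes Col1a1 and Col1a2 in grey. The FACIT chains are interrupted, with 2 to 21 runs, and in Col12a1, Col14a1 and Col20a1 the runs take up 8.1% to 13.9% of the chain, while Col1a1 and Col1a2 carry 1 long run.

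The last 60 coding bases up to the end of the cysteine pair are printed below for the type IX chains, which assemble into 1 trimer, with the cysteine codons in capitals. In mm9 these stretches lie at chr1:24258593-24258652 (Col9a1, + strand, exon 38 of 38), chr4:120727278-120727337 (Col9a2, + strand, exon 32 of 32) and chr2:180356012-180356071 (Col9a3, + strand, exon 32 of 32).
Col9a1: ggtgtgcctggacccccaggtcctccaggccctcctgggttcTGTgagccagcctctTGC
Col9a2: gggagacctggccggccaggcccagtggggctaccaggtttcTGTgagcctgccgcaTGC
Col9a3: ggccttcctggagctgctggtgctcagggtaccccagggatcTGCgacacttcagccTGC

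The same stretch is given for the members with the most counts. It lies at chr9:79450041-79450100 (Col12a1, - strand, exon 65 of 66), chr15:55349814-55349873 (Col14a1, + strand, exon 47 of 48) and chr4:129776211-129776270 (Col16a1, + strand, exon 70 of 70).
Col12a1: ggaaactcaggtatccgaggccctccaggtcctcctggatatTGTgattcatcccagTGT
Col14a1: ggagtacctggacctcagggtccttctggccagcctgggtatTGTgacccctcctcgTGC
Col16a1: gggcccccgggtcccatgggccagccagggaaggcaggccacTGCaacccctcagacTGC

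The remaining members with the cysteine codons are *Col19a1* and *Col22a1*. Their stretches lie at chr1:24271574-24271633 (Col19a1, - strand, exon 51 of 51) and chr15:71629814-71629873 (Col22a1, - strand, exon 64 of 64). All 8 stretches are in frame from their first base, and each opens with a glycine codon.
Col19a1: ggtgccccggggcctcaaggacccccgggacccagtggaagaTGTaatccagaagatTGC
Col22a1: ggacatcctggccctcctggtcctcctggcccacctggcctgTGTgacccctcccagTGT

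The libraries held 10835070 to 14160301 counts. *Col1a1*, *Col1a2* and *Sparc* took 42.0% to 48.5% of the counts in WT and 28.3% to 34.8% in Mkx-/- libraries, so counts were scaled with TMM normalization and are given as normalized CPM, counts scaled to a common library size. For *Mkx* the mean level was 138 ± 4.92 in WT and 45.7 ± 9.68 in knockout libraries (CPM ± SD, n = 3), with adjusted p = 0.00183 for a log2 change of -1.60, so that reads on the gene remained in the Mkx-/- libraries. All 11 tendon markers were detected and tested, with a median log2 fold change of -0.42. Among them *Tnmd* was at 1083 ± 148 and 1065 ± 207 CPM (SD, n = 3) and *Scx* at 37.0 ± 18.2 and 16.8 ± 3.10 CPM (SD, n = 3) in WT and Mkx-/- libraries, and neither was called. WT library 3 held 1 count of *Xist* and 301 counts of *Ddx3y*, whereas the other 5 libraries held 1289 to 1866 and 0 counts, so 1 WT library came from a male and the rest from females. edgeR's quasi-likelihood test was run across 14550 genes. Calls required an absolute log2 fold change over 1 together with a Benjamini-Hochberg adjusted p under 0.05, and all adjusted p-values below come from that test. By this rule 1.89% of all tested genes were called higher, 1.33% were called lower, and 3.22% were called in either direction, against 0 of the 7 tested FACIT genes. An adjusted p under 0.05 with any fold change was reached by 5.44% of all tested genes, 3.18% higher and 2.26% lower, and again by 0 of the 7. An unadjusted p under 0.05 was reached by 3 of the 7, beside 22.6% of all tested genes. DESeq2, the tool named in the methods of the study, called 1 of them, *Col22a1*. The 3 genes are *Col9a2*, *Col14a1* and *Col22a1*, which are also those whose CPM did not overlap between the genotypes, beside 28.2% of all tested genes. The median log2 fold change of the 7 was 0.43, beside -0.0037 over all tested genes.

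**Figure D2:**
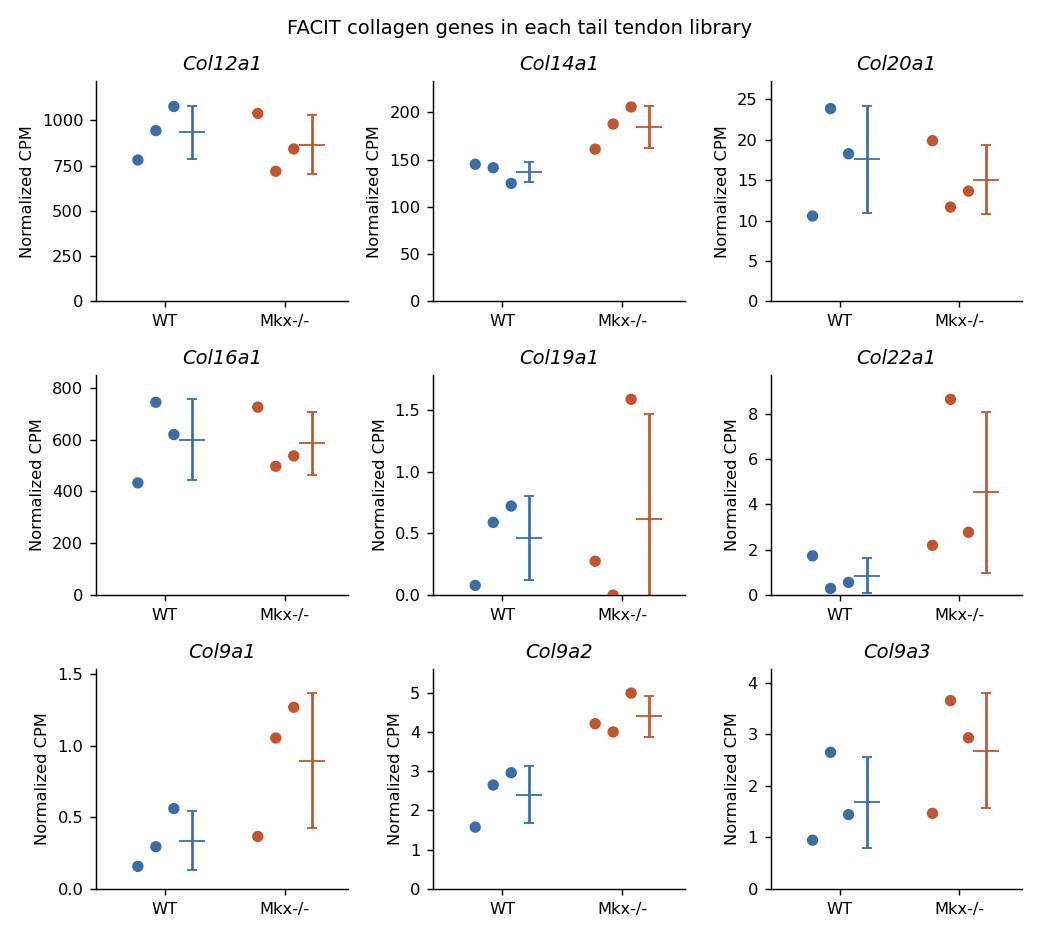
Normalized CPM of each FACIT gene (vertical axes from 0, each with its own scale) in the 3 WT (blue) and 3 Mkx-/- (orange) libraries, ordered by replicate number from left to right, with the mean and SD beside the points. The genotypes are apart in Col14a1, Col22a1 and Col9a2 and overlap in the other 6 genes.

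*Col12a1*, the gene of type XII collagen on the surface of tendon fibrils, lies on the minus strand of chromosome 9 (79446798 to 79566638, mm9). Its level was 781, 943 and 1077 CPM in WT against 1038, 718 and 842 CPM in Mkx-/- tendons. The highest and the lowest Mkx-/- library thus enclosed 2 of the 3 WT values. The means were 934 ± 148 and 866 ± 161 CPM (SD, n = 3), with a log2 fold change of -0.11 (95% interval -0.54 to 0.32, adjusted p = 0.783). The direction turned when single libraries were left out (-0.28 to 0.011).

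*Col14a1*, the gene of type XIV collagen, which takes part in fibril growth in the developing tendon, lies on chromosome 15 (55139305 to 55352358, plus strand). It had 145, 141 and 125 CPM in WT against 161, 188 and 206 CPM in Mkx-/- tendons. All 3 Mkx-/- libraries were above all 3 WT libraries, with means of 137 ± 10.8 and 185 ± 22.4 CPM (SD, n = 3). The log2 fold change was 0.43 (95% interval 0.12 to 0.74, unadjusted p = 0.0126, adjusted p = 0.106), which did not pass the test. With library size as the only scaling it was 0.69 with an adjusted p of 0.0416, still below the fold limit, but that scaling moved the median of all genes to 0.25.

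Types XII and XIV share their domain plan, with the 83 triplets counted above in each, and their genes were set against each other within each library, which needs no scaling. There were 5.38, 6.67 and 8.63 counts of *Col12a1* per count of *Col14a1* in WT and 6.45, 3.83 and 4.09 in Mkx-/- tendons. Mkx-/- library 1 lay among the WT values and the other 2 lay below them. The log2 ratio differed by -0.54 (two-sided exact permutation p = 0.2, where 0.1 is the smallest p that 3 against 3 libraries allow), and the groups overlapped.

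*Col16a1* encodes the type XVI chain, found beside fibrils and microfibrils, and lies on chromosome 4 (129725084 to 129776527, plus strand). It had 433, 745 and 620 CPM in WT against 726, 498 and 537 CPM in Mkx-/- tendons. The values of the 2 genotypes interleaved, with WT library 1 lowest and WT library 2 highest of all 6. Means were 599 ± 157 and 587 ± 122 CPM (SD, n = 3), and the log2 fold change was -0.03 (95% interval -0.55 to 0.49, adjusted p = 0.960).

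*Col20a1*, the type XX gene, lies on chromosome 2 (180721240 to 180752245, plus strand). It had 10.6, 23.9 and 18.3 CPM in WT against 19.9, 11.7 and 13.6 CPM in Mkx-/- tendons, an interleaved pattern with the same order of the 6 libraries as *Col16a1*. The log2 fold change was -0.22 (95% interval -0.92 to 0.48, adjusted p = 0.721). Over the 6 libraries the log2 CPM of *Col16a1* and *Col20a1* had a Pearson r of 0.98, the highest among the 21 pairs of tested FACIT genes. The next were *Col12a1* with *Col20a1* at 0.82 and with *Col16a1* at 0.79. *Col14a1* ran with *Col22a1* at 0.78, and the r of *Col12a1* was -0.59 with *Col14a1* and -0.69 with *Col22a1*. These values describe 6 libraries that share their scaling and their genotype, and no test was made of them.

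Because *Col16a1* and *Col20a1* varied together, the 250 bases before their start sites are shown, from the RefSeq promoter table of build GRCm38.p6. That table runs from 250 bases before to 50 bases after a start, and it held 6 start sites of 5 of the 9 genes, those of *Col9a1*, *Col9a2*, *Col16a1*, *Col19a1* and *Col20a1*. Promoters of *Col9a3*, *Col12a1*, *Col14a1* and *Col22a1* were not analysed here. The motifs searched on both strands were TATAAA (the TATA box), GGGCGG (the GC box), CCAAT (the CCAAT box), ACAAAG (a SOX motif) and ACANNTGT (a motif of Iroquois-like homeobox proteins, to which Mkx is related). None of them overlap in these windows. Capitals mark every match. The window of *Col16a1*, with a GC content of 74.3%, held 2 GGGCGG matches, of which the second lies after the start, and 1 CCAAT match. The window of *Col20a1*, with 50.0% GC beside a median of 52.7% over all promoters, held 1 ACAAAG match. TATAAA and ACANNTGT were in neither. Among 32851 promoters of the same length, 35.7% held GGGCGG, 37.4% CCAAT, 18.7% ACAAAG, 13.6% TATAAA and 7.4% ACANNTGT. The printed bases are chr4:130047590-130047839 (+ strand) for *Col16a1* and chr2:180986285-180986534 (+ strand) for *Col20a1*.
Col16a1: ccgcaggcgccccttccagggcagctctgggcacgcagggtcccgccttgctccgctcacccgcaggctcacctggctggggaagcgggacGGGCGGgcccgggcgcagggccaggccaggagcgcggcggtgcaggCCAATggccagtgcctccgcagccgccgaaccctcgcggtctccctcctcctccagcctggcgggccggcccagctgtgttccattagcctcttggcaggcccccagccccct
Col20a1: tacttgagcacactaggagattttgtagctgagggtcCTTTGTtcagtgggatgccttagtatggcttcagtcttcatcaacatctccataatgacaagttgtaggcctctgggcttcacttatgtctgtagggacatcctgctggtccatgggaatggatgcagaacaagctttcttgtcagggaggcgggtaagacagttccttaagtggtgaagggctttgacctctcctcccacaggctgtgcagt

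The type IX genes encode the chains of 1 trimer, which in cartilage is linked to type II collagen. *Col9a2* (chromosome 4, 120711990 to 120727927, plus strand) had 1.58, 2.65 and 2.96 CPM in WT against 4.21, 4.0 and 4.99 CPM in Mkx-/- tendons, from 20 to 37 and 46 to 63 counts. Each Mkx-/- library lay above each WT library. The log2 fold change was 0.88 (95% interval 0.24 to 1.52, unadjusted p = 0.0129, adjusted p = 0.108), short of both limits of the call. *Col9a3* (chromosome 2, 180332495 to 180356894, plus strand) had 0.945, 2.65 and 1.44 CPM in WT against 1.47, 3.65 and 2.93 CPM in Mkx-/- tendons. Its groups overlapped, and its log2 fold change was 0.71 (95% interval -0.33 to 1.76, adjusted p = 0.406). *Col9a1* (chromosome 1, 24184449 to 24259577, plus strand) was too low to be tested, with 2, 3 and 7 counts in WT and 4, 15 and 16 counts in Mkx-/- libraries. The filter on low counts left *Col9a1* out of the test, and fits that could test it are given below. Its means were 0.338 ± 0.205 and 0.896 ± 0.471 CPM (SD, n = 3). All 3 type IX chains were thus near the lower end of what these libraries could measure. *Col9a3* overlaps *Tcfl5* on the other strand, as *Col12a1* does 4930562D21Rik and *Col22a1* does Gm16308, and the strand setting of the counting is not given in the sources used here.

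Type II collagen, the fibril partner of type IX in cartilage, was far more abundant than type IX in these tendons. *Col2a1* averaged 748 ± 261 in WT and 705 ± 220 in Mkx-/- libraries (CPM ± SD, n = 3), with a log2 fold change of -0.084 (adjusted p = 0.905). Of 12 tested cartilage markers, 3 were called higher (*Acan*, log2 fold change 2.20, adjusted p = 0.00380; *Ucma*, 3.47, adjusted p = 0.000158; *Matn3*, 1.45, adjusted p = 0.00181) and 1 lower (*Col11a2*, -1.72, adjusted p = 0.0107). *Acan* encodes the main cartilage proteoglycan and *Matn3* a matrilin that binds type IX collagen. *Col11a2* averaged 4013 ± 816 in WT and 1216 ± 375 in Mkx-/- libraries (CPM ± SD, n = 3). The summed CPM of the cartilage list lay in separate ranges, 4772 to 6574 in WT and 3189 to 3956 in Mkx-/- libraries, while the median log2 fold change of its members was 0.035, and *Matn1* was at 0 in every library. Without *Col11a2*, left out after its fall was seen, the other 12 genes summed to 1564 to 1763 in WT and 2061 to 2372 CPM in Mkx-/- libraries. These ranges were separate in the opposite direction, but leaving out the called gene that fell favours a rise. Most of that sum came from *Col2a1* and *Chad*, which were not called and whose values overlapped between the genotypes. The part of cartilage-like cells in the type IX values was not tested.

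*Col19a1* (chromosome 1, 24268729 to 24594311, minus strand), a basement membrane zone collagen, had 1, 6 and 9 counts in WT and 3, 0 and 20 counts in Mkx-/- libraries and was not tested. Mkx-/- library 2 had none and Mkx-/- library 3 the most, so the spread within 1 genotype covered that between the genotypes.

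*Col22a1* (chromosome 15, 71626225 to 71864657, minus strand), the gene of the type XXII chain of tissue junctions, had the smallest p of the family. It had 22, 3 and 7 counts in WT and 24, 123 and 35 counts in Mkx-/- libraries, or 1.73, 0.294 and 0.561 against 2.20, 8.64 and 2.77 CPM. Every Mkx-/- library was above every WT library, but WT library 1 was close to Mkx-/- library 1, and Mkx-/- library 2 stood well above the rest. The log2 fold change was 2.36 (standard error 0.70, 95% interval 0.76 to 3.95, unadjusted p = 0.00904, adjusted p = 0.0898), so *Col22a1* was not called. DESeq2 gave 2.37 with an adjusted p of 0.00904, which passes the limits. Without Mkx-/- library 2 the log2 fold change was 1.48 (adjusted p = 0.258), and without WT library 1 it was 3.36 (adjusted p = 0.0375), which also passes. The size and the call of *Col22a1* thus turned on single libraries and on the tool.

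Muscle genes also differed between the libraries. The summed level of 20 skeletal muscle genes was 488, 110 and 325 CPM in WT and 3460, 1669 and 673 CPM in Mkx-/- libraries. Of the 20, 5 were called higher (*Tnnt3*, *Tnnc2*, *Tnni2*, *Casq1* and *Tcap*) and 0 lower, and that count went to 0 without WT library 2, WT library 3, Mkx-/- library 1 or Mkx-/- library 2, to 8 without Mkx-/- library 3 and to 17 without WT library 1. Genes of the myotendinous junction, where type XXII collagen is known to lie, summed to 196, 169 and 173 CPM in WT and 218, 256 and 288 CPM in Mkx-/- libraries, and 1 of 5 tested was called higher, *Xirp1* (log2 fold change 3.14, adjusted p = 0.0158), an actin-binding protein of striated muscle. The call of *Xirp1* was lost without WT library 3. Most of the junction sum came from *Lama2*, which was not called. It held 142, 113 and 124 CPM in WT and 154, 175 and 182 CPM in Mkx-/- libraries, so the sum mainly follows that gene. Within WT the order of the libraries was the same for *Col22a1* and for the muscle sum. Within Mkx-/- it was not, since *Col22a1* peaked in library 2 and the muscle sum in library 1. The part of muscle in the level of *Col22a1* was not tested. Over the 6 libraries the genes whose log2 CPM ran closest to *Col22a1*, among 10295 with a mean of at least 5 CPM, were *Stxbp6* (Pearson r 0.997), *Chad* (0.989) and *Stx16* (0.987). They were picked as the highest of all 10295 values, and no test was made of them. *Chad*, a gene of the cartilage list, was highest in Mkx-/- library 2 (1504 CPM), as was *Col22a1*.

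**Figure D3:**
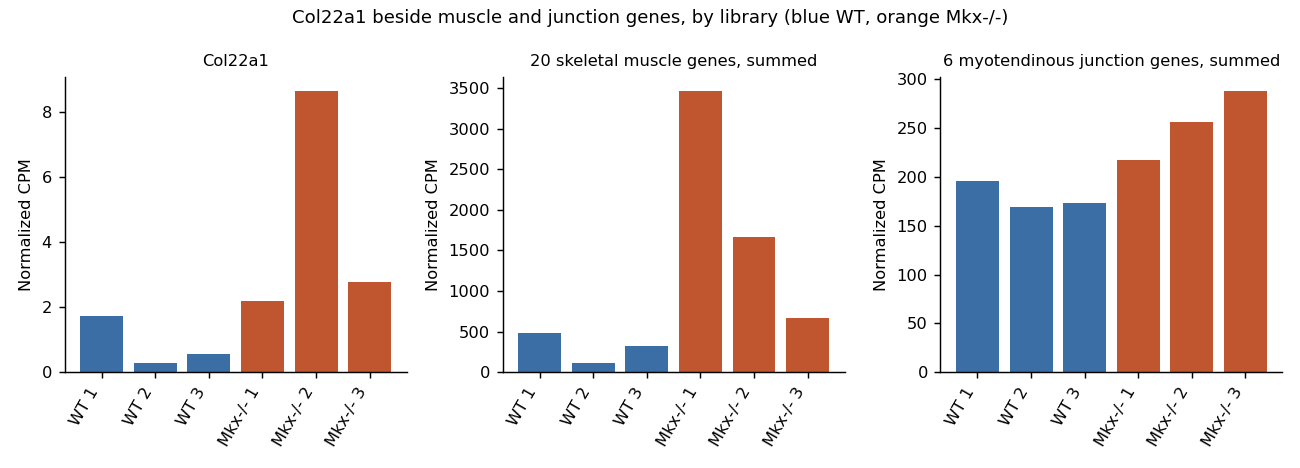
Normalized CPM (bars from 0) in each of the 3 WT (blue) and 3 Mkx-/- (orange) libraries for Col22a1, for the sum of 20 skeletal muscle genes and for the sum of 6 myotendinous junction genes. Col22a1 is highest in Mkx-/- library 2 (8.64 CPM), the muscle sum in Mkx-/- library 1 (3460 CPM) and the junction sum in Mkx-/- library 3 (288 CPM). Most of the junction sum is Lama2 (182 CPM in Mkx-/- library 3).

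Levels of different genes were compared per kilobase of exon. In WT tendons the order ran from *Col16a1* (88.8 ± 23.2 CPM per kb, SD, n = 3) and *Col12a1* (61.3 ± 9.73) through *Col14a1* (19.5 ± 1.54) and *Col20a1* (4.19 ± 1.59) to *Col9a2* (0.774 ± 0.235) and *Col9a3* (0.436 ± 0.228), with *Col22a1*, *Col19a1* and *Col9a1* below 0.1 on average. Neighbours whose WT libraries overlapped were *Col16a1* and *Col12a1*, *Col9a2* and *Col9a3*, *Col22a1* and *Col19a1*, and *Col19a1* and *Col9a1*. The first 7 places were the same in Mkx-/- tendons. There *Col16a1* was at 86.9 ± 18.0, *Col12a1* at 56.9 ± 10.6, *Col14a1* at 26.4 ± 3.20 and *Col20a1* at 3.59 ± 1.02 CPM per kb (SD, n = 3), each apart from its neighbour, and only the last pair, *Col9a1* and *Col19a1*, had changed places, with overlapping values. By reads the most abundant FACIT gene was *Col12a1*, and per length of union exons it was *Col16a1*. The WT ranges of these genes overlapped, but within every library *Col16a1* was above *Col12a1* per length.

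FACIT collagens act on fibrils, so each gene was next set against *Col1a1* in the same library. *Col1a1* itself averaged 185335 ± 48981 in WT and 115592 ± 29209 in Mkx-/- libraries (CPM ± SD, n = 3), with a log2 fold change of -0.68 (adjusted p = 0.287). *Col1a2* had a log2 fold change of -1.02 (unadjusted p = 0.00969, adjusted p = 0.0933), with every Mkx-/- library below every WT library. Neither gene was called. Fibrillar collagens called lower numbered 1 in this fit and 2 under DESeq2, with a looser filter or in a robust fit. *Col1a2* was the only uncalled gene of that list with a log2 fold change below -1. There were 168, 239 and 185 counts of *Col1a1* per count of *Col12a1* in WT and 144, 134 and 120 in Mkx-/- libraries. Every Mkx-/- library therefore held more *Col12a1* per *Col1a1* than any WT library, and the group means differed by 0.56 on the log2 scale, or 1.47-fold. The log2 ratio of *Col16a1* to *Col1a1* was -8.24, -8.24 and -8.33 in WT and -7.68, -7.60 and -7.56 in Mkx-/- libraries. These values were very close within a genotype (SD 0.051 and 0.065, n = 3), although *Col16a1* and *Col1a1* each varied widely between libraries, and the group means differed by 0.66, or 1.58-fold. *Col20a1* (0.49), *Col9a2* (1.58) and *Col22a1* (3.08) also had separate groups, while *Col14a1* (1.10) and *Col9a3* (1.36) overlapped. These ratios move with *Col1a1* itself: over the other 14549 tested genes the median difference of the ratio to *Col1a1* was 0.67, and 31.4% of those genes lay higher in every Mkx-/- library than in any WT library. The differences of *Col12a1*, *Col16a1* and *Col20a1* were at or below that median, so they were no larger than that of the median tested gene. Those of *Col14a1*, *Col9a3*, *Col9a2* and *Col22a1* were above it. Each ratio with separate groups had a two-sided exact permutation p of 0.1, the smallest that 3 against 3 libraries allow, and 0.16 after adjustment over 8 ratios, so no ratio could reach the threshold. All 7 ratios share *Col1a1* as denominator and are not independent of each other.

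**Figure D4:**
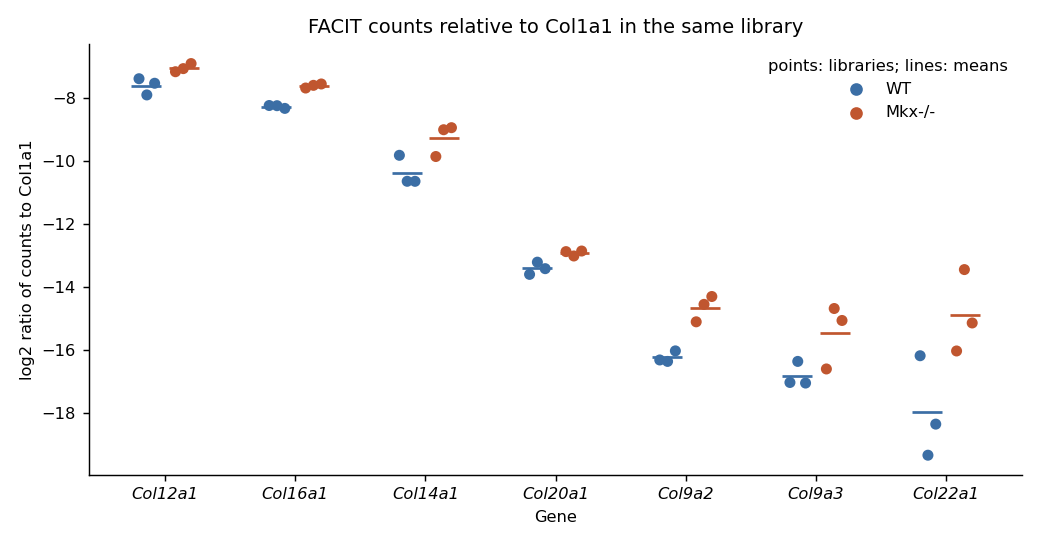
log2 ratio of the counts of each tested FACIT gene to those of Col1a1 (0.5 counts added to each) in the 3 WT (blue) and 3 Mkx-/- (orange) libraries, with lines at the means. The genotypes are apart for Col12a1, Col16a1, Col20a1, Col9a2 and Col22a1 and overlap for Col14a1 and Col9a3, beside a median shift of 0.67 over all other tested genes, and the Col16a1 values are the most tightly grouped.

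The fibrillar collagens, on which FACIT collagens lie, moved in both directions. Of 11 tested genes, 3 were called higher and 1 lower, beside 1.89% and 1.33% of all genes. *Col5a1* (log2 fold change 2.16, adjusted p = 0.00141) and *Col5a2* (1.25, adjusted p = 0.00445), the genes of type V collagen that helps to start type I fibrils, rose. *Col3a1*, the type III gene, rose by 1.09 (adjusted p = 0.0172), a call lost without WT library 3, Mkx-/- library 2 or Mkx-/- library 3. *Col11a2*, a type XI chain of cartilage-type fibrils, was the gene that fell, while *Col11a1* had a log2 fold change of -0.26 (adjusted p = 0.544). The median of the 11 was 0.21. No FACIT gene had a change called in the same fit, and whether the 2 lists differ was not tested.

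**Figure D5:**
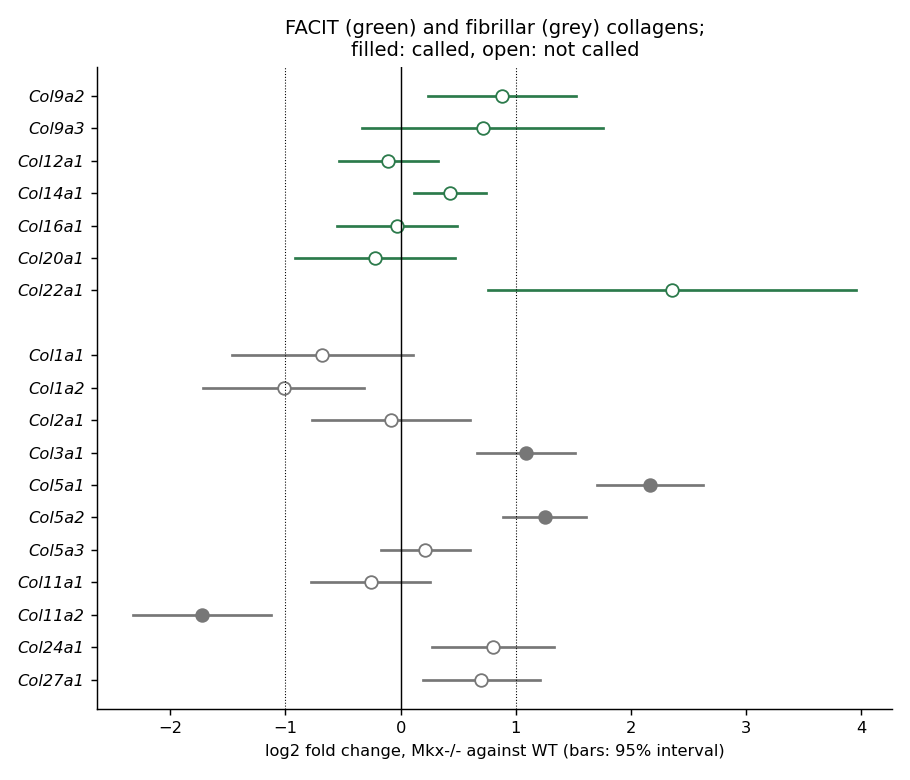
log2 fold change of Mkx-/- against WT (horizontal axis, with 95% intervals from edgeR's fit) for the 7 tested FACIT genes in green and the 11 fibrillar collagen genes in grey, with filled points for called genes and dotted lines at -1 and 1. No FACIT point is filled, and the interval of Col22a1 is the widest.

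Among 18 genes of fibril-surface partners, the proteoglycans, matrilins and other proteins that sit beside or bind FACIT collagens, 17 were tested. Of these, 5 were called higher and 0 lower, beside 1.89% and 1.33% of all tested genes, with a median log2 fold change of 0.11. The risen genes were the small proteoglycan genes *Bgn* (2.14, adjusted p = 0.00115) and *Prelp* (2.48, adjusted p = 0.00645), *Fn1* for fibronectin (1.53, adjusted p = 0.00173), *Thbs4* for a thrombospondin of tendon (1.26, adjusted p = 0.0118) and *Matn3*, whose values are above. The call of *Prelp* was lost without WT library 2, and that of *Thbs4* without WT library 2 or WT library 3. *Lum* had a log2 fold change of 0.73 (adjusted p = 0.0248), which missed the fold limit. Proteins described as binding partners of types XII and XIV were among those not called. *Dcn*, the gene of decorin, had a log2 fold change of -0.033 (adjusted p = 0.934), *Fmod* for fibromodulin 0.11 (adjusted p = 0.800), *Tnxb* for tenascin X -0.35 (adjusted p = 0.238), and *Comp* 0.88 (adjusted p = 0.0598).

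Of 9 collagen receptor genes, 8 were tested, 0 were called higher and 1 lower, with a median log2 fold change of -0.071. *Itga2*, the integrin chain that pairs with the beta 1 chain to bind collagens, fell by 2.04 on the log2 scale (adjusted p = 0.00271). *Itga11*, the integrin chain for fibrillar collagen on fibroblasts, had a log2 fold change of 0.95 (adjusted p = 0.0115), which missed the fold limit.

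Markers of other tissues were summed in each library because tail tendon was taken whole. The summed CPM ranged from 67.8 to 83.5 in WT and from 118 to 182 in Mkx-/- libraries for 10 endothelial genes (1 called higher, *Erg*), and from 8115 to 10730 and 12597 to 23372 for 7 Schwann cell genes (0 called). Leukocyte genes ran the other way, from 425 to 478 and 279 to 334 CPM for 9 tested genes (1 called lower, *Emr1*, a call lost without Mkx-/- library 2). Epidermal genes summed to 3.07 to 14.7 and 19.5 to 25.8 CPM (5 tested, 0 called), osteoblast genes to 3.07 to 5.45 and 6.67 to 7.37 CPM (2 tested, 0 called) and adipocyte genes to 2.24 to 3.62 and 2.29 to 4.0 CPM (1 tested, 0 called). The tested osteoblast genes, *Alpl* and *Runx2*, averaged 1.09 and 0.652 CPM in WT and 3.31 and 1.82 CPM in Mkx-/- libraries. Of the untested ones, *Bglap*, *Ibsp*, *Sp7* and *Dmp1* had lower means in Mkx-/- libraries and *Bglap2*, *Phex* and *Sost* higher means. In the endothelial sum a large part of the difference came from *Erg*, at 6.78 to 9.69 CPM in WT and 26.9 to 44.1 CPM in Mkx-/- libraries. *Tek* averaged 25.9 and 26.2 CPM, and 9 of the 10 endothelial genes had a log2 fold change above 0. Of the 11 tendon markers 1 was called higher (*Thbs4*) and 1 lower (*Mkx*). The part of these cell types in the values of *Col9a2*, *Col14a1* and *Col22a1* was not tested. Without WT library 3, the male library, the log2 fold changes were 1.05 for *Col9a2*, 0.35 for *Col14a1* and 2.1 for *Col22a1*, all with the same direction as before and none called.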

How the data were processed

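RNA of tail tendons was sequenced on the Ion Proton system. The authors removed adaptors and low-quality reads, aligned to mm9 with MapSplice and deposited raw counts per gene symbol, without normalization. The counting program, its annotation and its strand setting are not given in the sources used here. All 6 columns matched a sample label, and 0 columns were left unused. The sources used here do not say that the libraries of a group came from separate mice. By *Xist* and *Ddx3y*, WT library 3 came from another mouse than WT libraries 1 and 2. The p-values measure the spread between these libraries, which for the other libraries may be technical.

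Counts were analysed with edgeR 4.0.16 (TMM, filterByExpr, glmQLFit on genotype, prior count 0.125) in R 4.3.3, with DESeq2 1.42.0 as an alternative. The thresholds follow the methods of the study, which applied them with DESeq2 rather than edgeR. The common biological coefficient of variation was 0.196. Scripts were tested on simulated data. Lengths, coordinates and coding sequences came from the GENCODE annotation of mm9. Ratios had 0.5 counts added. The genes of the family, the partner and marker lists and the rule for named genes (members, *Mkx*, called list genes and set partners, leading marker genes, and the 3 genes closest to the member with the smallest p) were chosen with earlier results of these data known. Same-numbered libraries correlated in their deviations from the group means at 0.026, -0.21 and 0.30, so replicate numbers were not taken as pairs. Between replicates, chi-square per degree of freedom was 8.22 to 40.1, so no library was a repeat.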

Additional observations from a re-analysis of the deposited data

How the results depend on the processing

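No FACIT gene was called lower under any alternative, and *Mkx* was called lower in all 13. FACIT genes called higher were 0 under edgeR with TMM, 1 under DESeq2, 2 with library size as the only scaling (*Col9a2*, log2 fold change 1.15, adjusted p = 0.0345, and *Col22a1*, 2.60, adjusted p = 0.0499) and 1 with a filter of 1 count in any library (*Col22a1*, adjusted p = 0.00660). Leaving out 1 library gave 0 to 1, the 1 being *Col22a1* without WT replicate 1. Over 12 alternatives the log2 fold change of *Col22a1* was 1.48 to 3.36 (adjusted p 0.00660 to 0.258), and it could not be tested with at least 10 counts in every library. Over 13 alternatives *Col9a2* ranged from 0.64 to 1.15 (adjusted p 0.0345 to 0.285) and *Col14a1* from 0.35 to 0.69 (adjusted p 0.0416 to 0.312). With library size only, which moved the median of all genes to 0.25, the direction reversed for *Col12a1* (0.15), *Col16a1* (0.23) and *Col20a1* (0.043). It also reversed for *Col12a1* without Mkx-/- replicate 2 (0.011), for *Col16a1* without WT replicate 2 (0.14), Mkx-/- replicate 2 (0.076) or Mkx-/- replicate 3 (0.030), and for *Col20a1* without WT replicate 2 (0.044). Leaving out 1 library gave -0.28 to 0.011 for *Col12a1*, -0.23 to 0.14 for *Col16a1* and -0.49 to 0.044 for *Col20a1*. With looser filters or a library left out, *Col9a1* could be tested in 6 alternatives (1.04 to 1.98, adjusted p 0.146 to 0.408) and *Col19a1* in 2 (0.41 to 0.43, adjusted p 0.847 to 0.936). The cause of these shifts was not tested.

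With the replicate number as a block, 0 FACIT genes were called (*Col22a1* 2.20, adjusted p = 0.177; *Col14a1* 0.43, adjusted p = 0.210; *Col9a2* 0.90, adjusted p = 0.140), the calls of *Col3a1*, *Thbs4*, *Tnnt3* and *Tcap* were lost, so that the tendon markers called higher went to 0, and the Schwann cell markers called higher went to 1. Against the sum of *Col1a1* and *Col1a2*, a denominator chosen after seeing the data, the log2 ratio difference was 0.86 for *Col16a1* and 0.69 for *Col20a1*. Per kb of the longest transcript, WT and Mkx-/- means were 115 and 113 CPM for *Col16a1* and 81.1 and 75.2 CPM for *Col12a1*, and the WT mean of *Col14a1* was 21.2 CPM.

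Counts of called list genes are given here where they moved by over 1.5 times, and the others stayed within that. DESeq2 called 2 fibrillar collagens and 4 tendon markers lower, and 9 skeletal muscle, 4 endothelial, 1 osteoblast, 1 epidermal and 1 Schwann cell markers higher. Library size only gave, as called higher, 1 collagen receptor and 2 tendon, 2 osteoblast, 15 skeletal muscle, 2 myotendinous junction, 3 endothelial, 3 epidermal and 7 Schwann cell markers, and 0 leukocyte markers lower. The filter of 1 count in any library gave 2 fibrillar collagens, 4 tendon markers and 1 adipocyte marker lower, and 1 osteoblast, 19 skeletal muscle, 3 myotendinous junction, 5 endothelial, 4 epidermal and 3 Schwann cell markers higher, and 10 counts in every library gave 0 myotendinous junction markers higher. A robust fit gave 2 fibrillar collagens and 2 tendon markers lower and 1 skeletal muscle marker higher, and the adjusted p alone gave 1 collagen receptor higher and 2 leukocyte markers lower. Leaving out 1 library gave, as called higher, 2 to 3 fibrillar collagens, 3 to 5 fibril-surface partners, 0 to 1 collagen receptors, 0 to 1 tendon, 0 to 17 skeletal muscle, 0 to 3 myotendinous junction, 1 to 2 endothelial, 0 to 1 epidermal and 0 to 6 Schwann cell markers, and as called lower 1 to 2 tendon and 0 to 1 leukocyte markers.

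Depth limits *Col9a1* and *Col19a1*, whose counts of 0 to 20 per library leave a large counting error.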
